A study of Rattus norvegicus with 24 samples.

Results

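The genes described here are the metallothioneins, the zinc exporter Slc30a1 and the zinc-sensing transcription factor Mtf1. They were chosen by symbol alone, as the entries of the deposited table named Mt1, Mt1a, Mt2A, Mt2a or Mt3 together with Slc30a1 and Mtf1. This rule found 5 genes, Mt1, Mt2A, Mt3, Slc30a1 and Mtf1, among 17420. RNA was sequenced from hippocampus and neocortex of 24 Sprague-Dawley rat pups on embryonic day 18, with 6 pups in each of 4 groups named for the treatment of the dam. MAM dams were injected with methylazoxymethanol acetate, an agent that alkylates DNA, at 22 mg/kg on gestational day 17. Poly I:C dams were injected on that day with a synthetic double-stranded RNA, polyinosine:cytosine, at 7.5 mg/kg. Saline dams were the injected controls. Low Protein dams ate a diet with 6.1% protein from gestational day 11 to 18, whereas the isocaloric control diet had 20.3% protein. Tissue was collected 18 hours after the injections. The sources used here do not give the diet of the MAM and Poly I:C dams, or whether Low Protein dams were injected. Each group held 3 pups from each of 2 litters, so that the dam was the treated animal and the pup was the replicate in the tests. The p-values therefore measure the spread between pups, and littermates share a dam.

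Metallothioneins are small cysteine-rich proteins that bind zinc and copper in the cytosol and buffer their free level. Mt1 and Mt2A are induced in most cell types by zinc, glucocorticoids and oxidative stress, and Mt3 is the brain form, also called growth inhibitory factor. Slc30a1 is the zinc transporter of the plasma membrane that carries zinc out of the cell. Mtf1 binds metal response elements in the promoters of Mt1, Mt2A and Slc30a1 when zinc rises. The comparison of the 4 groups asks whether the level of these zinc genes in the fetal brain differed with the treatment of the dam.

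The promoters are shown because they hold the metal response elements through which Mtf1 acts. The sequences are those of RefSeq (build GRCr8), in which all 5 genes had an entry, and each run covers the 250 bases before the gene's start, 5′ to 3′ on the strand of the gene. Capitals mark the core of the metal response element, searched as TGCACNC or TGCGCNC on both strands. The windows were chr19:10832976-10833225 (minus strand) for Mt1, chr19:10838709-10838958 (minus strand) for Mt2A, chr19:10856081-10856330 (minus strand) for Mt3 and chr13:106021769-106022018 (plus strand) for Slc30a1.
Mt1: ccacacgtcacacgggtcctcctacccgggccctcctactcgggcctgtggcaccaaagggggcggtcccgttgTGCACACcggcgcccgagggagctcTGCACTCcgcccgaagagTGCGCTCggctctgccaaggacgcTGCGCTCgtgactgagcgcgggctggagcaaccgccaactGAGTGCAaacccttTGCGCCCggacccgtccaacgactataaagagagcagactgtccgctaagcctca
Mt2A: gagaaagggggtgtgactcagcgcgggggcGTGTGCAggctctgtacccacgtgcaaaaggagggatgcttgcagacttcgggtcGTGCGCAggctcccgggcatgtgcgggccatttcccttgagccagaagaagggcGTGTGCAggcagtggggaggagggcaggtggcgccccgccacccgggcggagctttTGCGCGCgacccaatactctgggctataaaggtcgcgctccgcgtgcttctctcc
Mt3: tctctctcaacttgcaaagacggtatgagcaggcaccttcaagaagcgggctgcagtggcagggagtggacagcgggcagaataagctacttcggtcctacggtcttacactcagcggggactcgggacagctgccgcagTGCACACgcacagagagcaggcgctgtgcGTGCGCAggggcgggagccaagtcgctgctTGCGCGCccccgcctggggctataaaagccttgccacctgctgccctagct
Slc30a1: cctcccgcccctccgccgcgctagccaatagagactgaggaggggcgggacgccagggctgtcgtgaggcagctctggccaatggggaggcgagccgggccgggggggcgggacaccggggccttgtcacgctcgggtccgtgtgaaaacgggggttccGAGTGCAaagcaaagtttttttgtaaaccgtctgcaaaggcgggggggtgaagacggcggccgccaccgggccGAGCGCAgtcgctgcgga

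The 3 metallothionein genes lie on the same strand of chromosome 19 of GRCr8. The core letters matched 6 times before Mt1, 4 times before Mt2A, 3 times before Mt3, and 2 times before each of Slc30a1 and Mtf1, and no matches overlapped each other. Among 27457 RefSeq promoters of 300 bases, 25% held at least 1 match, 6.69% at least 2, 1.81% at least 3 and 0.455% at least 4. The shares were higher, at 38.6%, 12.1%, 3.77% and 0.905%, among the 3979 promoters of genes tested below, to which all members but Mtf1 belong. A TATAAA, the letters of a TATA box, began 32 bases before the start of Mt1 and 31 bases before that of Mt2A and Mt3. It was found in 14.3% of all promoters and 6.66% of those of genes tested, and in neither Slc30a1 nor Mtf1. These matches describe the letters and do not show that Mtf1 was bound.

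The authors deposited TPM values, a transcript abundance that divides the reads of a gene by its length and by the total of the pup, with an offset of 0.0001 added. The values of every pup summed to 70350.1, less than the total that TPM has by definition. Levels and the cutoff of 1 below are on this scale and cannot be set directly beside TPM of other data. Over the 24 pups the mean TPM was 16.6 for Mt3, 2.54 for Slc30a1, 2.23 for Mt1, 1.46 for Mt2A and 0.295 for Mtf1. Mt3 was thus the most abundant member per length in these brains. Multiplied by the genomic span, introns included, 47.8% to 54.3% of the low values of a pup came out as whole reads to within 0.05, where chance would give 10%, so that a large share of low values did not. If the span was the length used, genes with long introns such as Mtf1 have low TPM at a similar number of reads. From these steps a pup had an estimated 24.3 to 63.1 M reads (megareads), with a median of 38.2 M, which is an approximate depth. The median was lowest in Poly I:C, at 29.9 M, against 41.4 M in MAM, 42.6 M in Saline and 43.0 M in Low Protein. A pup then had an estimated 28 to 204 reads of Mt1, 25 to 132 of Mt2A, 552 to 2142 of Mt3, 282 to 855 of Slc30a1 and 378 to 985 of Mtf1. Mt1 and Mt2A were the members with the fewest reads. They are related paralogs, and whether the authors' counting split reads between them was not tested, so that their separate levels are uncertain.

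Neurod6, a transcription factor of cortical and hippocampal neurons, was high in all pups, at 46.8 to 127 TPM. The Saline pup 2.1 (litter 2, pup 1) stood apart. Its summed level of 8 cortex and hippocampus markers was 158 TPM, the lowest of 24, and its summed level of 7 striatum markers was 8.65 TPM, the highest. The differences of Mt1 and Mt3 from Saline are given with and without this pup, and so is the correlation of Mt1 with Mt3. The genes most like each member and the correlations with gene lists were computed with all 24 pups only. In whole tissue, fewer cells of a type and less RNA per cell cannot be told apart.

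Differences were tested as log2 of the TPM with limma, in 1 fit of all 24 pups with Benjamini-Hochberg adjustment over the 5086 genes whose mean TPM was above 1 in every group. Mt1, Mt2A, Mt3 and Slc30a1 were among these genes, and Mtf1 was tested in a wider fit of 13371 genes. None of the 4 members passed an adjusted p under 0.05 in any of the 6 comparisons of groups, and the lowest limma adjusted p was 0.0959. Against Saline, 1 of the 4 passed an unadjusted p under 0.05 in MAM, where 11.2% of all genes tested did. None of the 4 passed in Low Protein, where 8.24% of genes did, or in Poly I:C, where 9.95% did. After adjustment 0.0197% of genes passed in MAM, and 0% in each of the other treatments. The groups overlapped for all 5 members in every comparison, whereas 0.786% of genes tested did not overlap between MAM and Saline, 0.747% between Low Protein and Saline, and 0.492% between Poly I:C and Saline.

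**Figure D1:**
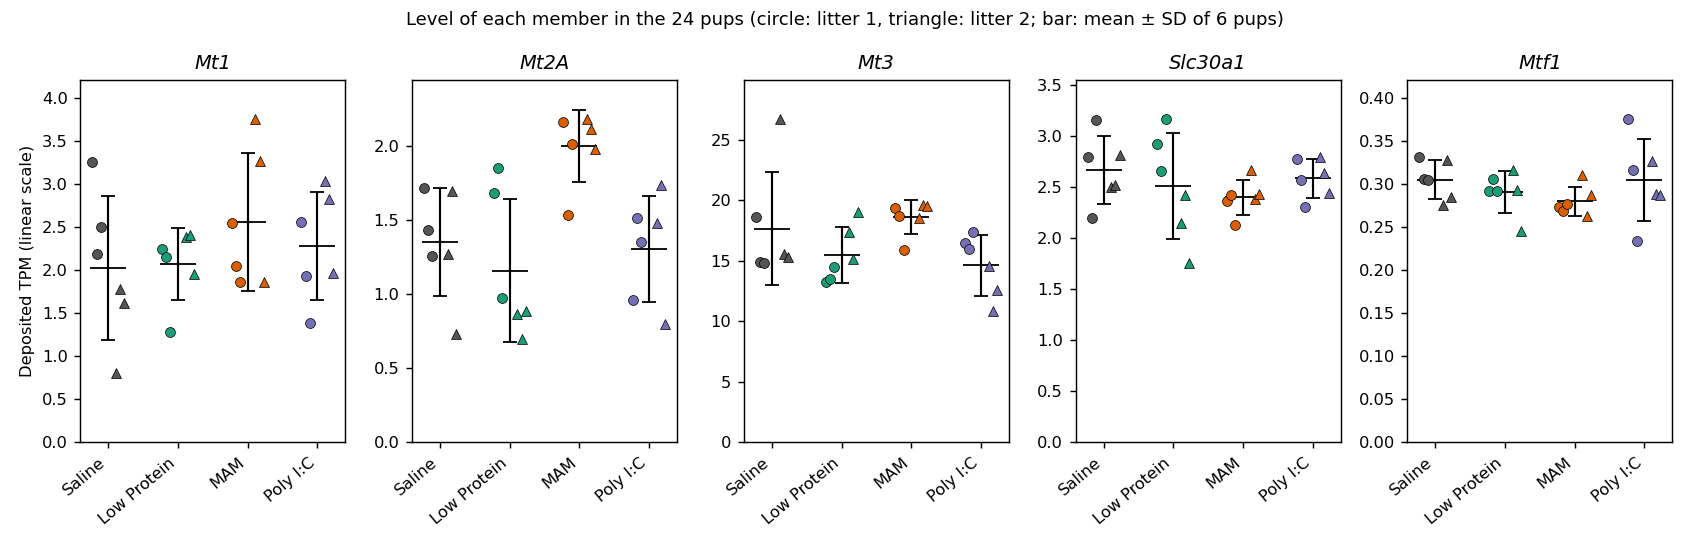
Deposited TPM (linear scale from 0) of Mt1, Mt2A, Mt3, Slc30a1 and Mtf1 in each of 24 pups, by group. Circles are litter 1, triangles litter 2, and bars the mean ± SD of 6 pups. The MAM pups of Mt2A sit between 1.53 and 2.19 TPM, the Saline pup 2.1 has the highest Mt3 at 26.7 TPM, and Mtf1 lies between 0.234 and 0.376 TPM in every group.

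Mt2A, the second of the general metallothioneins, was highest in MAM pups. The lowest, median and highest Mt2A levels were 1.53, 2.06 and 2.19 TPM in MAM. They were 0.732, 1.35 and 1.72 TPM in Saline, 0.702, 0.929 and 1.85 TPM in Low Protein, and 0.797, 1.42 and 1.74 TPM in Poly I:C. Of the 6 MAM pups, 5 lay above the highest Saline pup, and all 6 lay above the Saline median. The mean Mt2A level was 2.00 ± 0.243 TPM (SD, n = 6) in MAM and 1.35 ± 0.363 TPM (SD, n = 6) in Saline, a log2 difference of 0.61 (standard error 0.231, 95% interval 0.13 to 1.08), or 1.52-fold. It passed the unadjusted threshold but not the adjusted one (limma p = 0.0148, adjusted p = 0.416), and the exact two-sided permutation test over all splits of these 12 pups gave p = 0.00649, where 0.00216 is the smallest possible. With the 2 litter means of each group in place of the pups, the limma adjusted p was 0.651. The litter means of Mt2A were 1.90 and 2.10 TPM in MAM and 1.47 and 1.23 TPM in Saline, so both MAM litters lay above both Saline litters. The unadjusted call rested on Saline pup 2.3, since without it the log2 difference was 0.44 (limma adjusted p = 0.470) and no longer passed. It was also lost without MAM litter 2 (0.53, limma adjusted p = 0.808) and without Saline litter 2 (0.44, limma adjusted p = 0.438).

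Low Protein and Poly I:C pups did not differ from Saline pups in Mt2A beyond the spread. The mean was 1.16 ± 0.481 TPM (SD, n = 6) in Low Protein, a log2 difference from Saline of -0.27 (95% interval -0.74 to 0.21, exact permutation p = 0.351). In Poly I:C it was 1.31 ± 0.360 TPM (SD, n = 6), a log2 difference of -0.05 (95% interval -0.52 to 0.43, exact permutation p = 0.874). These intervals reach -0.74 and 0.43, so that equal levels were not shown. The litters of the Low Protein group were unlike each other, with mean Mt2A levels of 1.502 TPM in litter 1 and 0.818 TPM in litter 2. The 3 pups of litter 2 lay below the 3 pups of litter 1, a gap of -0.83 on the log2 scale (exact permutation p = 0.1, the smallest that 3 pups against 3 allow). Without litter 2 the log2 difference of Low Protein from Saline was 0.15, and without litter 1 it was -0.68.

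The groups were then compared among themselves, which shares the MAM pups with the comparison above. Mt2A was 0.65 higher in MAM than in Poly I:C on the log2 scale (standard error 0.231, limma p = 0.00922, adjusted p = 0.0959, exact permutation p = 0.00433), and 5 of 6 MAM pups lay above every Poly I:C pup. Without MAM litter 2 this difference was 0.58 and no longer passed the unadjusted threshold. Low Protein was 0.546 times MAM for Mt2A, a log2 difference of -0.87 (95% interval -1.35 to -0.40, limma p = 0.000927, adjusted p = 0.139, exact permutation p = 0.0108). By unadjusted p this was the gene ranked 34 of the 5086 tested in that comparison. It rested on Low Protein litter 2, without which the difference was -0.46 and no longer passed the unadjusted threshold, and it was -1.29 without litter 1. Low Protein and Poly I:C differed by -0.22 (exact permutation p = 0.472), within their spread. In order of mean level the groups were MAM, Saline, Poly I:C and Low Protein, and among the last 3 no difference was larger than the spread between pups. In the limma F test over the 4 groups Mt2A passed the unadjusted threshold but not the adjusted one (adjusted p = 0.162), where 16.4% of genes passed an unadjusted p under 0.05 and 0.413% an adjusted one.

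**Figure D2:**
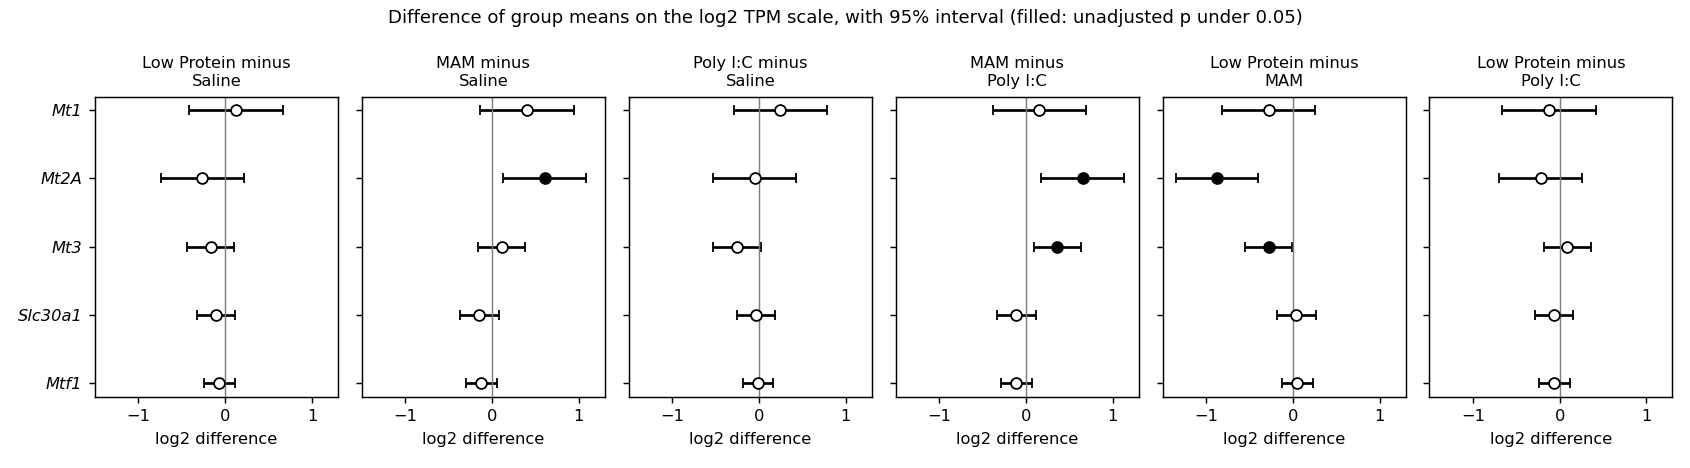
Log2 difference of the group means of each member in the 6 comparisons, with its 95% interval from limma. Filled points have an unadjusted p under 0.05. Mt2A is filled in the 3 comparisons with MAM, Mt3 in the comparisons of MAM with Poly I:C and with Low Protein, and the other points are open.

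Mt1, the other general metallothionein, varied between pups more than between groups. The lowest, median and highest Mt1 levels were 0.800, 1.99 and 3.26 TPM in Saline, 1.28, 2.20 and 2.41 TPM in Low Protein, 1.86, 2.30 and 3.76 TPM in MAM, and 1.38, 2.26 and 3.03 TPM in Poly I:C. The 4 ranges overlapped widely, and the highest pup of all was MAM pup 2.1 and the lowest Saline pup 2.1. The log2 difference from Saline was 0.40 in MAM (95% interval -0.14 to 0.94, exact permutation p = 0.279), 0.12 in Low Protein (-0.42 to 0.66, exact permutation p = 0.725) and 0.25 in Poly I:C (-0.29 to 0.79, exact permutation p = 0.498). All 3 intervals include 0, and the one for MAM also includes the size seen for Mt2A. The 3 pups of Saline litter 2 lay below the 3 of litter 1, a gap of -0.98 on the log2 scale. Without Saline litter 2 the MAM difference was -0.088, and without Saline litter 1 it was 0.89. Without Saline litter 1 the differences of all 3 treatments from Saline passed the unadjusted threshold, at 0.62 in the Low Protein group and 0.74 in the Poly I:C group, but none the adjusted one. Without Saline pup 2.1 the differences from Saline were 0.16 in MAM, -0.12 in the Low Protein group and 0.0040 in the Poly I:C group.

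Mt3, the brain metallothionein, was lower in Poly I:C than in MAM at an unadjusted p under 0.05, and lower in Low Protein than in MAM at a p near that threshold. The lowest, median and highest Mt3 levels were 15.9, 19.0 and 19.6 TPM in MAM, 14.8, 15.4 and 26.7 TPM in Saline, 13.3, 14.8 and 19.1 TPM in Low Protein, and 10.8, 15.3 and 17.4 TPM in Poly I:C. Of the 6 MAM pups, 5 lay above the highest Poly I:C pup, and 4 of 6 Low Protein pups lay below the lowest MAM pup. The mean Mt3 level was 18.6 ± 1.39 TPM (SD, n = 6) in MAM and 14.6 ± 2.52 TPM (SD, n = 6) in Poly I:C, a log2 difference of 0.36 (standard error 0.132, limma p = 0.0111, adjusted p = 0.105, exact permutation p = 0.00866). In this comparison 2 of the 4 members tested, Mt2A and Mt3, passed an unadjusted p under 0.05, and so did 23.1% of all genes tested, while 3.46% passed after adjustment and 4.35% did not overlap. Low Protein differed from MAM in Mt3 by -0.28 (limma p = 0.0473, adjusted p = 0.450, exact permutation p = 0.0216). The unadjusted call of this difference held in 23 of 43 other settings of the analysis. The settings that lost it included the wider fit, litter as a random block and litter means. Also among them were the fits without MAM litter 1, MAM litter 2, Saline litter 1 or Low Protein litter 1, where the difference was -0.12. There too 2 of the 4 members, Mt2A and Mt3, passed the unadjusted threshold, beside 11% of all genes tested, with 0.0983% after adjustment and 1.1% not overlapping. Between Low Protein and Poly I:C none of the 4 passed, where 5.31% of genes did, 0.0393% passed after adjustment and 0.315% did not overlap.

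Against Saline, Mt3 differed by 0.11 in MAM (95% interval -0.16 to 0.38), by -0.17 in Low Protein (-0.44 to 0.11) and by -0.25 in Poly I:C (-0.53 to 0.02), with exact permutation p-values of 0.567, 0.366 and 0.190. The Saline mean of 17.6 ± 4.67 TPM (SD, n = 6) rested on Saline pup 2.1, whose 26.7 TPM lay far above the 18.6 TPM of the next pup. Without this pup the MAM difference was 0.24, past the unadjusted threshold only (limma adjusted p = 0.279), the Low Protein difference -0.04 and the Poly I:C difference -0.13. Without it, the comparison of MAM with Poly I:C reached an adjusted p of 0.0415 at the same difference of 0.36. The cortex markers of this pup were the lowest and its striatum markers the highest of all pups, as given above, and their part in its Mt3 level was not tested. The litters also differed for Mt3. The 3 pups of litter 2 lay above the 3 of litter 1 in Low Protein, a log2 gap of 0.31, and below them in Poly I:C, a gap of -0.40. Without Poly I:C litter 2 the difference of MAM from Poly I:C was 0.16 (limma adjusted p = 0.522), and without MAM litter 2 it was 0.31 (limma adjusted p = 0.405), neither past the unadjusted threshold. The Poly I:C difference from Saline passed the unadjusted threshold in 6 of 43 other settings of the analysis. Among them were the fits without Poly I:C litter 1 (-0.46, with a limma adjusted p = 0.0906) and without Saline litter 1 (-0.36, with a limma adjusted p = 0.486). In the F test over the 4 groups Mt3 passed the unadjusted threshold only (limma adjusted p = 0.300).

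Slc30a1, the zinc exporter, did not differ between the 4 groups beyond the spread between pups when all pups were used. The lowest, median and highest levels were 2.20, 2.66 and 3.15 TPM in Saline, 1.75, 2.54 and 3.17 TPM in Low Protein, 2.13, 2.404 and 2.66 TPM in MAM, and 2.31, 2.60 and 2.80 TPM in Poly I:C. The log2 difference of MAM from Saline was -0.15 (95% interval -0.37 to 0.08, exact permutation p = 0.119), opposite in sign to that of Mt2A. It was -0.10 in Low Protein (-0.32 to 0.12, exact permutation p = 0.513) and -0.04 in Poly I:C (-0.26 to 0.18, exact permutation p = 0.697). These intervals leave out changes of the size of Mt2A in MAM. In Low Protein the 3 pups of litter 2 lay below the 3 of litter 1, a gap of -0.48 on the log2 scale. The differences of this group rested on the litter. Without litter 2 the Low Protein difference was 0.14 from Saline and 0.28 from MAM (limma adjusted p = 0.129), the second past the unadjusted threshold. Without litter 1 it was -0.34 from Saline (limma adjusted p = 0.254) and -0.30 from Poly I:C (limma adjusted p = 0.200), both past the unadjusted threshold.

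Mtf1, the zinc sensor, was low per length and did not differ between groups beyond the spread between pups. The lowest, median and highest Mtf1 levels were 0.275, 0.305 and 0.331 TPM in Saline, 0.245, 0.292 and 0.317 TPM in Low Protein, 0.263, 0.275 and 0.311 TPM in MAM, and 0.234, 0.303 and 0.376 TPM in Poly I:C. In the wider fit its log2 difference from Saline was -0.12 in MAM (95% interval -0.30 to 0.06, exact permutation p = 0.0628), -0.07 in Low Protein (-0.25 to 0.11) and -0.01 in Poly I:C (-0.19 to 0.17). The 3 intervals include 0. Of the 6 MAM pups, 3 lay below the lowest Saline pup. In the F test over the 4 groups none of Mtf1, Slc30a1 and Mt1 passed the unadjusted threshold, and the limma adjusted p-values were 0.762, 0.748 and 0.700.

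The spread between pups of 1 group set what could be seen. On the log2 scale the within-group SD was 0.49 for Mt1, 0.43 for Mt2A, 0.24 for Mt3, 0.19 for Slc30a1 and 0.15 for Mtf1, against a median of 0.14 over the genes tested. Mt1 and Mt2A were among the most variable genes tested, at percentiles of 99.1 and 98.5. Counting error at the median estimated reads would give a log2 SD of 0.13 for Mt1 and 0.20 for Mt2A, smaller than what was measured. The highest pup exceeded the lowest by 4.70-fold for Mt1, 3.12-fold for Mt2A and 2.47-fold for Mt3.

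**Figure D3:**
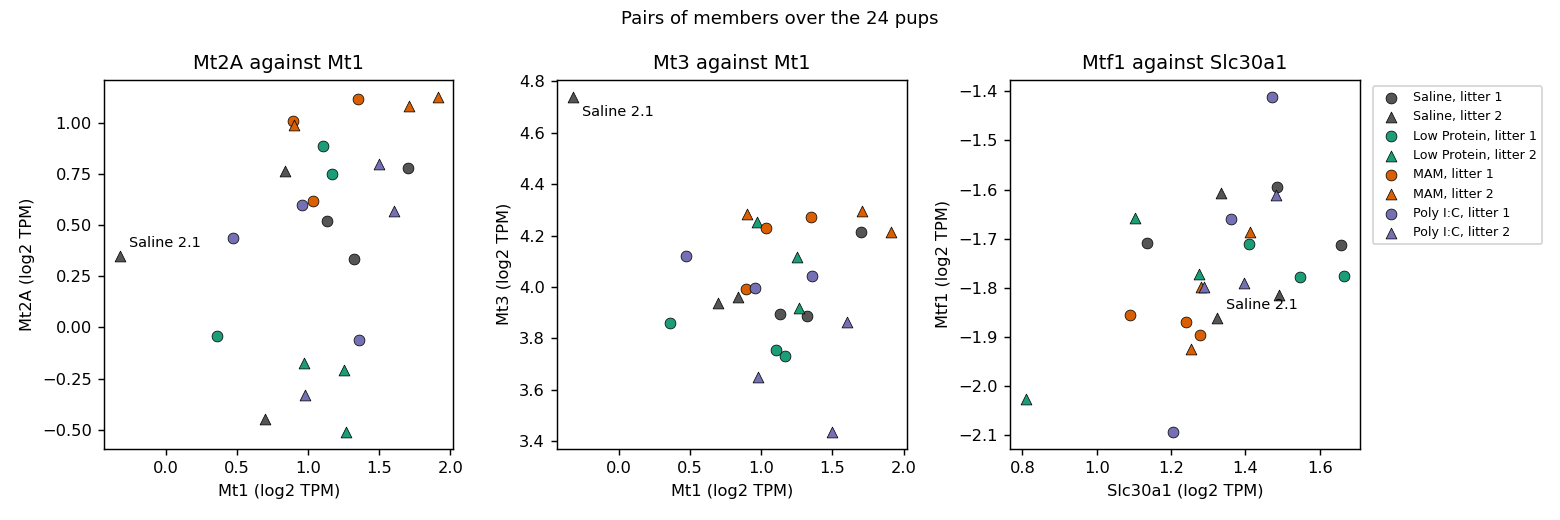
Log2 TPM of pairs of members in the 24 pups, coloured by group, with circles for litter 1 and triangles for litter 2. Mt1 and Mt2A are only loosely related, Saline pup 2.1 lies alone at the lowest Mt1 and highest Mt3, and Slc30a1 and Mtf1 lean upward together.

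The members did not vary as a block from pup to pup. As a description over the 24 pups, which share litters and groups, Pearson's r of the log2 levels was 0.31 for Mt1 with Mt2A, -0.27 for Mt1 with Mt3 and 0.16 for Mt2A with Mt3. Without Saline pup 2.1 the value for Mt1 with Mt3 was 0.12, so that its sign rested on this pup. Of the 10 pairs Slc30a1 with Mtf1 had 0.49, and 0.41 without the 2 pups farthest from the median of Slc30a1, and Mt1 with Mtf1 had 0.38. After subtraction of the group means the order of these pairs turned, with 0.51 for Mt1 with Mtf1 and 0.43 for Slc30a1 with Mtf1. The log2 ratio of Mt2A to Mt1 was -0.31 ± 0.369 (SD, n = 6) in MAM and -0.51 ± 0.693 (SD, n = 6) in Saline (exact permutation p = 0.550), so an unequal change of the paralogs was not detected.

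The genes most like each member were sought among the 5086 genes tested, a choice of the highest r that by itself gives high values. After subtraction of the group means, the genes tested with the highest r over 24 pups for Mt2A included Plin2 (0.83), a coat protein of lipid droplets, C1qbp (0.73), Gstm1 (0.72), a glutathione transferase, and Patz1 (0.70). For Mt1 the 5 highest were Pbxip1 (0.73), Nf1x (0.73), Ifitm3 (0.71), an interferon-induced membrane protein, Clu (0.70), the secreted chaperone clusterin, and Gid8 (0.69). Those of Mt3 were Nnat (0.90), the imprinted gene neuronatin, Cltb (0.88), a clathrin light chain, Enho (0.83), Map1lc3a (0.83), an autophagosome protein, and Shd (0.81). Slc30a1 was followed by Mtmr4 (0.81), Tnfaip1 (0.80), Dclre1b (0.79), Angel2 (0.79) and Sphk2 (0.77), and Mtf1 by Tcf20 (0.92), Mcm3ap (0.92), Snrnp200 (0.92), Synrg (0.91) and Ankrd50 (0.90). No gene was among the 5 of more than 1 member. Without the subtraction of group means the gene most like Mt2A was Fam110a (0.73), those most like Mt1 and Mt3 were Nf1x (0.70) and Enho (0.88), and those most like Slc30a1 and Mtf1 were Pcyox1 (0.74) and Tcf20 (0.93).

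Some cell type markers also differed in the comparisons with MAM. In MAM, 3 of 8 microglia markers passed an unadjusted p under 0.05 against Saline and were higher, C1qa by 0.39, C1qb by 0.33 and Trem2 by 0.38 on the log2 scale. Their list summed to 10.8 to 14.0 TPM in MAM, 9.47 to 11.2 TPM in Saline, 7.80 to 17.3 TPM in Low Protein and 8.99 to 13.1 TPM in Poly I:C. Of 10 blood markers in the fit, 2 were higher at that threshold, Hbz by 0.95 and Hbe1 by 0.75, and the 11 blood genes in the table summed to 2365 to 4248 TPM in MAM and 2082 to 3604 TPM in Saline. In the wider fit 2.15% of genes were higher in MAM at this threshold. All 10 blood markers were higher in MAM than in Saline, and all 10 were higher in Poly I:C than in Saline. The part of these cells in the Mt2A level was not tested. Across pups, after subtraction of group means, r of Mt2A was -0.11 with the mean log2 level of the microglia markers and -0.30 with that of the blood markers. In the comparison of MAM with Poly I:C, where Mt2A and Mt3 were higher in MAM, all 4 thalamus markers in the fit were lower in MAM, with a median of -0.75, and 2 passed the unadjusted threshold, Tcf7l2 at -1.78 and Lhx9 at -0.53, both transcription factors of the developing thalamus. Of 11 radial glia markers 2 were lower and of 8 microglia markers 1 was higher at this threshold, beside 14.1% of all genes lower and 3.64% higher in the wider fit. Against Saline, 2 of the 11 radial glia markers were higher in MAM and 2 in Poly I:C, and 0 were lower in either. In MAM 1 of 8 astrocyte markers and 1 of 8 cortex and hippocampus markers were also higher than in Saline at this threshold. The thalamus markers summed to 1.52 to 2.15 TPM in MAM, 1.44 to 5.58 TPM in Poly I:C, 1.78 to 4.39 TPM in Saline and 1.42 to 4.71 TPM in Low Protein. Against Saline, all 4 were higher in Poly I:C, with a median of 0.41 and 1 past the unadjusted threshold. As deposited, all 4 were lower in MAM than in Saline, with a median of -0.41 and none past it. In Low Protein all 4 were lower than in Poly I:C, with a median of -0.67. All 8 choroid plexus markers were lower in MAM than in each other group, with medians of -0.35 against Saline and -0.24 against Poly I:C, and were higher in Low Protein than in MAM, with a median of 0.42, but none passed the unadjusted threshold. Their list summed to 58.6 to 216 TPM in MAM, 34.0 to 254 TPM in Poly I:C, 133 to 217 TPM in Low Protein and 129 to 189 TPM in Saline. The sums of MAM pups 1.3 and 2.3 were low, at 58.6 and 71.6 TPM, and the other MAM pups had 153 to 216 TPM. The median sums were 156 TPM in MAM, 142 TPM in Saline, 179 TPM in Poly I:C and 167 TPM in Low Protein. The lower level was thus not shared by all MAM pups. The part of thalamus or choroid plexus in the Mt2A and Mt3 levels was not tested. After subtraction of group means, r of Mt1 was 0.63 with the choroid plexus, 0.61 with the endothelium and 0.55 with the microglia markers. It was 0.63 with a list of 10 glucocorticoid-induced genes and 0.56 with a list of other genes linked to Mtf1. It was 0.55 with genes listed for copper and 0.52 with the cortex and hippocampus markers. With the glucocorticoid-induced list r was 0.14 for Mt2A and 0.71 for Mtf1. None of these values was computed without Saline pup 2.1, the lowest in Mt1. These are descriptions over 24 pups that share litters.

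Few of the remaining genes of zinc handling passed the unadjusted threshold against Saline. The wider fit held 8 other genes of the Slc30 family, listed here as zinc exporters. Of these, none was higher and 1, Slc30a9 at -0.20, was lower in MAM than in Saline at an unadjusted p under 0.05. Of the 13371 genes, 2.15% were higher and 7.64% lower at this threshold. The list's median was -0.12, against -0.07 for all genes of the fit, and all 8 were lower in MAM as deposited, but 7 of 8 with the samples scaled by the median of ratios. Slc30a2 had the largest difference at -0.66, at a mean level of 0.0455 TPM (limma unadjusted p = 0.0843). In Low Protein 1 of the 8 was lower, Slc30a3, the transporter that fills synaptic vesicles with zinc, at -0.44 (limma unadjusted p = 0.0173, adjusted p = 0.686), where 2.65% of all genes in the fit were higher and 4.43% lower at the unadjusted threshold. None of the 8 passed in Poly I:C, where 3.85% were higher and 5.35% lower.

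The zinc importers of the Slc39 family, which bring zinc into the cytosol, had 14 genes in the fit. In MAM 3 of the 14 were lower than in Saline at an unadjusted p under 0.05 and none was higher. They were Slc39a14 at -0.22, Slc39a10 at -0.19 and Slc39a6 at -0.14. Of all genes in the fit, 7.64% were lower and 2.15% higher at this threshold. The list's direction depended on the scaling. As deposited 9 of the 14 were lower in MAM and 5 higher, with a median of -0.04. With the median of ratios 6 were lower and 8 higher, with a median of 0.03. In Poly I:C 1 of the 14 was higher, Slc39a7, the zinc channel of the endoplasmic reticulum, at 0.26, and the list's median was 0.04. None of the 14 passed in Low Protein. The largest differences from Saline were those of Slc39a2, at -2.45 in the Low Protein group, -1.09 in the MAM group and 1.07 in the Poly I:C group, none past the threshold, at a mean level of 0.0311 TPM with 3 pups at the offset. Slc39a10 was the single gene of the zinc and copper lists to pass an adjusted p under 0.05 in any of the 6 comparisons. Its level was 1.39 TPM in MAM and 1.75 TPM in Poly I:C, a log2 difference of -0.33 (standard error 0.0708, limma adjusted p = 0.0163 over the 5086 genes and 0.0343 over the 13371 genes, of which 0.681% passed), and it was chosen for mention after its value was seen.

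**Figure D4:**
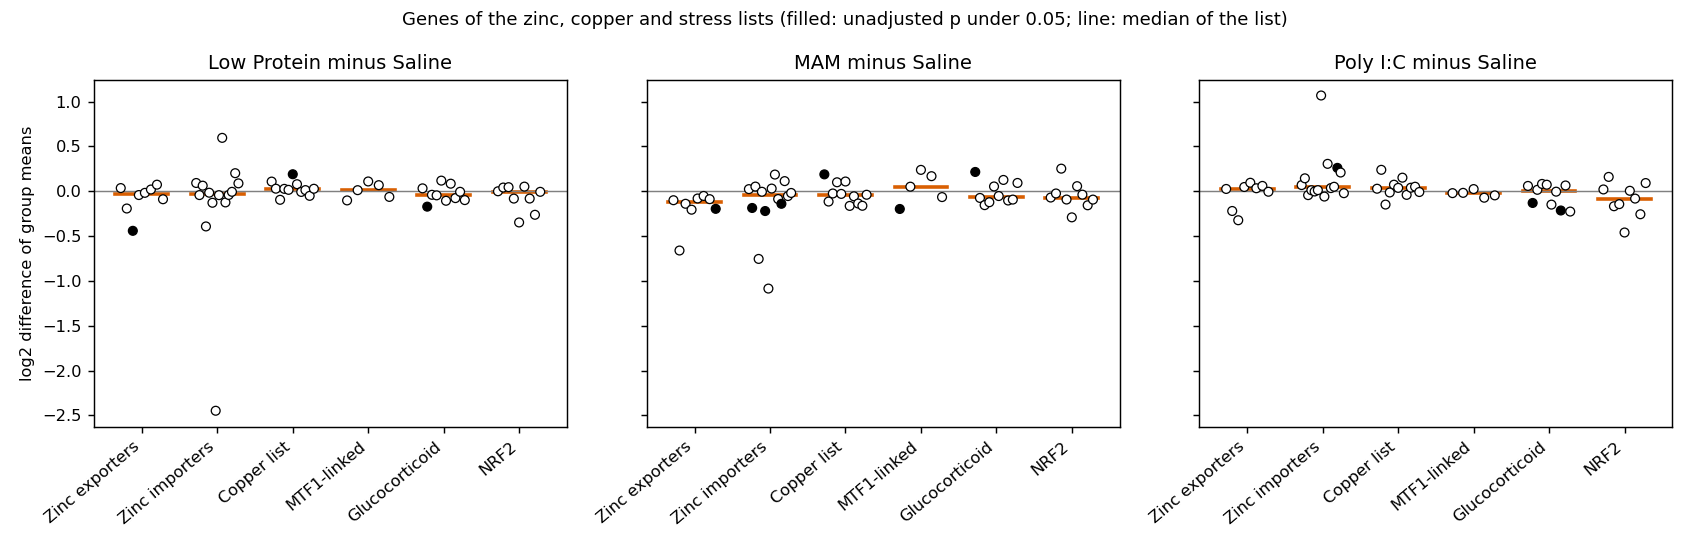
Log2 difference from Saline of each gene in the zinc exporter, zinc importer, copper, MTF1-linked, glucocorticoid and NRF2 lists, in the 3 treatments. Filled points have an unadjusted p under 0.05 and the bars are list medians, which lie between -0.12 and 0.05. The points beyond 1 in either direction are Slc39a2, at a mean level of 0.0311 TPM.

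The lists that share regulators or metals with the metallothioneins also held few genes past the threshold. Of 11 genes listed for copper, among them Mtf2, a chromatin protein that is no copper gene, 1 was higher in MAM, the copper chaperone Atox1 at 0.19, and 1 was higher in Low Protein, Cox17, which brings copper to cytochrome oxidase, at 0.19. The list's medians were -0.04, 0.03 and 0.04 in MAM, Low Protein and Poly I:C. In MAM 3 of the 11 were higher as deposited and 7 with the median of ratios, where the median was 0.03. Of 5 other genes linked to Mtf1, Gclc, the catalytic subunit of glutamate cysteine ligase, was lower in MAM at -0.20, and none passed in the other treatments. Of 10 glucocorticoid-induced genes, Ddit4 was higher in MAM at 0.22, Dusp1 was lower at -0.17 in the Low Protein group and at -0.13 in Poly I:C, and Sgk1 was lower in Poly I:C at -0.21. None of 9 NRF2 antioxidant genes passed the unadjusted threshold in any treatment. The lowest limma adjusted p among these genes was 0.382, for Dusp1 in Poly I:C.

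**Figure D5:**
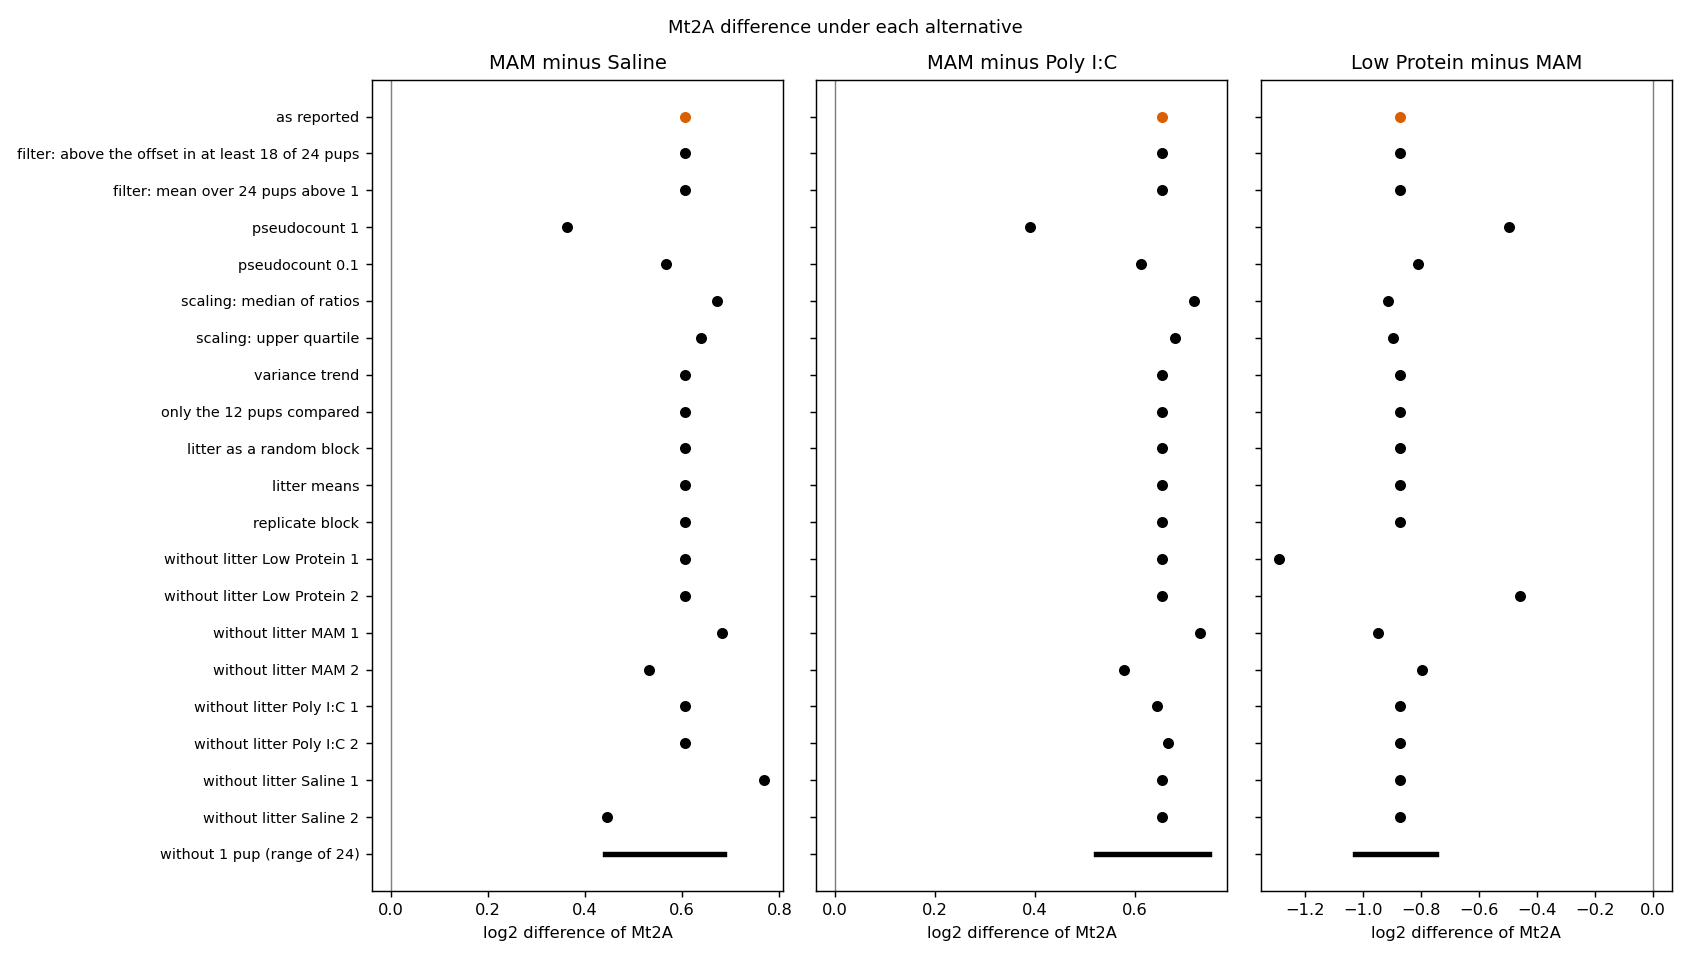
Log2 difference of Mt2A between MAM and Saline, MAM and Poly I:C, and Low Protein and MAM as reported (orange) and under each other setting of the analysis, with the range over 24 fits that leave out 1 pup as a bar. The differences from Saline lie between 0.36 and 0.77 and none crosses 0.

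The sign of the Mt2A difference between MAM and Saline held in all 43 other settings of the analysis, from 0.36 with a pseudocount of 1 to 0.77 without Saline litter 1. Its unadjusted p was under 0.05 in 40 of the 43, and its limma adjusted p lay between 0.206 and 0.928.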

How the data were processed

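Hippocampus and neocortex of 24 rat pups were sequenced after poly(A) selection (Illumina TruSeq Stranded mRNA, paired-end). The authors trimmed reads at a phred score of 30 and a minimum length of 25 bases, aligned them to rn6 with STAR (version 2.4.1d per the labels), and quantified RefSeq transcripts by the E/M method of Partek. The authors deposited TPM values with an offset of 0.0001, and 20.9% of the values equal this offset. No reads were counted anew. Groups were taken from the maternal treatment in the labels, and litter and pup from the numbers in the sample titles.

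Log2 TPM was compared with limma (version 3.58.1, R version 4.3.3), with 24 pups and the group as the factor. The 5086 genes with every group mean above 1 were tested. A wider fit took the 13371 genes above the offset in at least 18 of 24 pups. The code was tested on simulated data. Single values had an exact permutation test, two-sided, and the threshold was a p under 0.05. The reads per pup were estimated, with GRCr8 spans, since the table gives no counts, and cover counting error only. Alternatives covered the filter, the pseudocount, the scaling, the variance trend, restricting the fit to the pups compared, litter effects, a replicate block, and each pup and litter left out.

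All 5 members are named with values. Genes of the pathway and marker lists are named where their unadjusted p in a comparison with Saline was under 0.05 or their change was the largest of the list, and the 5 genes most like each member by r. Only some of the genes that this rule allows are printed, and only some of the marker lists. Among values left out, r after subtraction of group means was 0.76 for Mtf1 and -0.48 for Mt3 with the cortex and hippocampus markers. The members and lists were chosen with earlier results of these data known. Pups with the same number in different groups were not from the same dam, so that the numbers do not pair the pups by litter. Of 36 such pairs, 22 had a correlation of their deviations above 0.1 (median 0.16, range -0.42 to 0.56). Whether the number carries another shared structure, such as an order or a batch, was not tested.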

Additional observations from a re-analysis of the deposited data

Results flagged for a closer look

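Single pups stood apart from the other 5 of their group for 6 combinations of gene and group. The gap to the nearest pup, divided by the range of the group, exceeded Dixon's 95% critical value for 6 samples. Chance passes this limit in about 1 of 20 groups, and 20 groups were examined on each scale. No explanation was tested.

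For Mt2A, MAM pup 1.2 was low at 1.53 TPM (log2 0.62), where the next pup had 1.98 TPM, and Saline pup 2.3 was low on the log2 scale (-0.45), where the next had 0.34. For Mt3, Saline pup 2.1 was high at 26.7 TPM on the TPM scale, and MAM pup 1.3 was low at 15.9 TPM (log2 3.99) where the next had 18.6 TPM. For Mt1, Low Protein pup 1.3 was low on the log2 scale (0.36), where the next had 0.97. For Mtf1, Low Protein pup 2.3 was low at 0.245 TPM (log2 -2.03), where the next had 0.291 TPM. The low MAM pup of Mt2A narrows the difference between MAM and Saline, and the low Saline pup of Mt2A widens it.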

How the results depend on the processing

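The members were recomputed under 43 other settings (Mtf1 under 42, since its mean was not above 1 over the 24 pups), 24 that leave out a pup, 8 that leave out a litter and 11 others. Of 1284 values, 1247 kept their sign and their side of an adjusted p of 0.05, 34 changed sign and 3 passed the adjusted threshold. The sign changes came only from leaving out pups or litters and concerned differences that had passed no threshold. The 3 that passed were Mt2A in MAM against Poly I:C with only the 12 pups compared (0.65, limma adjusted p = 0.0391), Mt3 in the same comparison without Saline pup 2.1 (0.36), and Mt2A in Low Protein against MAM without Low Protein litter 1 (-1.29, limma adjusted p = 0.00837). The last depends on the litter, since without Low Protein litter 2 the value was -0.46 (limma adjusted p = 0.326). The design has 2 dams per group, few reads of Mt1 and Mt2A, no counts and a depth that is only estimated. The causes of the changes below were not tested.

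Without Low Protein litter 1, Slc30a1 against MAM was -0.20 and Mt1 against Poly I:C 0.020. Without Low Protein litter 2, the Low Protein differences from Saline were -0.019 for Mt1, 0.15 for Mt2A and 0.14 for Slc30a1, and those from Poly I:C were 0.20 for Mt2A, -0.070 for Mt3 and 0.17 for Slc30a1. Without MAM litter 1, Low Protein differed from MAM by -0.014 for Slc30a1. MAM differed from Poly I:C in Mt1 by -0.050 without MAM litter 2 and by -0.060 without Poly I:C litter 1. Without Poly I:C litter 2, Low Protein differed from Poly I:C by 0.094 for Mt1 and -0.12 for Mt3. Without Saline litter 1, Poly I:C differed from Saline by 0.11 for Mt2A and 0.033 for Mtf1. Without Saline litter 2, the Mt1 differences were -0.37 for Low Protein, -0.088 for MAM and -0.24 for Poly I:C, each from Saline. When 1 pup was left out, the lowest and highest values of the results that changed were -0.030 and 0.14 for Slc30a1 in Low Protein against MAM, -0.14 and 0.032 for Slc30a1 against Poly I:C, -0.26 and 0.0092 for Mt1 against Poly I:C, -0.13 and 0.0039 for Mtf1 against Poly I:C, and -0.12 and 0.29 for Mt1 in Low Protein against Saline. In Poly I:C against Saline they were -0.21 and 0.085 for Mt2A, -0.075 and 0.062 for Mtf1, and -0.091 and 0.014 for Slc30a1. For Mt3 in MAM against Poly I:C they were 0.28 and 0.42.

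The number of genes in the whole table with a limma adjusted p under 0.05 moved more than the members. As reported it was 0 in Low Protein against Saline, 1 in MAM against Saline, 0 in Poly I:C against Saline, 176 in MAM against Poly I:C, 5 in Low Protein against MAM, 2 in Low Protein against Poly I:C and 21 in the F test. Leaving out 1 pup gave 0 to 1, 0 to 2, 0 to 1, 30 to 313, 1 to 13, 1 to 3 and 0 to 37 genes in that order. In MAM against Saline 2 genes passed with the wider filter, with the median of ratios and without Low Protein litter 1, Poly I:C litter 1, Poly I:C litter 2 or Saline litter 2. There 0 passed with only the 12 pups, litter means or the replicate block, and without MAM litter 1, MAM litter 2 or Saline litter 1. In MAM against Poly I:C 91 passed with the wider filter, 116 with the median of ratios, 300 with only the 12 pups, 99 with litter as a random block and 0 with litter means. Without Low Protein litter 2 it was 307, without MAM litter 1 it was 6, without MAM litter 2 it was 0 and without Poly I:C litter 1 it was 38. In Low Protein against MAM 18 passed with a mean over 24 pups above 1, 3 with a pseudocount of 1 or the upper quartile, 0 with the median of ratios or litter means and 2 with litter as a random block. Without Low Protein litter 1 it was 11, without MAM litter 2 it was 0, and without Low Protein litter 2, MAM litter 1 or Saline litter 1 it was 1. In Low Protein against Poly I:C 1 passed with a mean over 24 pups above 1, a pseudocount of 1, either scaling or litter as a random block, and without MAM litter 2, Poly I:C litter 2 or a Saline litter. There 0 passed with only the 12 pups, litter means or without Low Protein litter 2, and 4 without Low Protein litter 1. In Low Protein against Saline 1 passed with a mean over 24 pups above 1, 9 without Low Protein litter 1 and 2 without Poly I:C litter 1. In Poly I:C against Saline 219 passed without Poly I:C litter 1. The F test gave 13 with litter as a random block, 0 with litter means or without MAM litter 2, 38 and 41 without Low Protein litter 1 and 2, 3 without MAM litter 1, 7 without Poly I:C litter 2, and 10 and 11 without Saline litter 1 and 2.

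Of the genes at an unadjusted p under 0.05 in MAM against Saline, 156 of 572 were higher as deposited, but 79.96% with the median of ratios and 56.5% with the upper quartile, which moved all differences of that comparison by 0.06 and 0.03. The replicate block, a fit with the pup number as a factor, gave 427 genes in MAM against Poly I:C and a limma adjusted p of 0.242 for Mt2A in MAM against Saline. It changed no call of a member.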

Other observations

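Mt4, the metallothionein of stratified epithelia, lies beside the other metallothionein genes and is no member of the group above. Its level was 0.0110 to 0.173 TPM over the 24 pups, with means of 0.0930 TPM in Saline, 0.0908 TPM in Low Protein, 0.0919 TPM in MAM and 0.0962 TPM in Poly I:C. At these levels its log2 values had a within-group SD of 0.93, and no difference between groups was detectable.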
